A study of Homo sapiens with 6 samples.

Results

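Ribosome biogenesis factors are the proteins that build ribosomes without being part of the finished particle. The set described here holds 48 genes, chosen by their symbols from the 26364 genes of the authors' deposited table, and all 48 were found there. The cells were REH, an established human cell line from acute lymphoblastic leukaemia of B-cell precursors. They were treated for 6 h with S3I-201, a STAT3 inhibitor, at 50 µM, or with DMSO, its solvent, as the control. There were 3 libraries in each of the 2 groups, from independent experiments per the labels, and no allele or transgene is named for either group. The authors' deposited table gives each gene 1 mean normalized count over the 6 libraries, 1 log2 fold change and 1 p-value, unadjusted and adjusted, so values per library and the overlap of the groups cannot be shown.

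Ribosome production starts in the nucleolus, where RNA polymerase I copies the ribosomal DNA into a long precursor. Small nucleolar ribonucleoproteins, or snoRNPs, modify the precursor at chosen bases, those of the box C/D class by methylation and those of the box H/ACA class by pseudouridylation. A succession of scaffold proteins, helicases and GTPases then folds, cuts and exports the precursors of the small and the large subunit. Growing and dividing cells make many ribosomes, and genes of this pathway are known as common targets of the transcription factor MYC.

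Libraries held an estimated 6560000 to 14500000 counts, from size factors of 0.573 to 1.27 that the steps of single reads in rarely detected genes gave. Of 10 markers of B-cell precursors, 9 had mean normalized counts of at least 1041 per the authors' deposited table and VPREB1 was listed at 0. Among 10 markers of other cell types, 5 were listed at 0 and 8 were under 10 in that table, and the myeloid gene MPO stood at 978. Positive fold changes were read as higher with S3I-201, with DMSO as the reference, since the table does not state the reference; the opposite reading would turn every direction given here. Shrinkage towards 0 by the authors' tool is apparent in the fold changes, and the implied SE given beside them is the size of that change over the normal quantile that its p-value stands for.

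The comparison asks how far transcripts of these factors moved in REH cells under the STAT3 inhibitor. RRS1, NOP16 and WDR43 fell with S3I-201 and were 1.51, 1.46 and 1.34 times lower per the authors' deposited table, and 45 of the 48 factors did not pass an adjusted p of 0.05. The 3 calls are 6.25% of the factors, where 1.45% of all 11912 tested genes were called lower and 4.45% called higher per the authors' deposited table. Of the 48 factors 0 were called higher by the authors' DESeq2 adjusted p, and 0 were higher at an unadjusted p under 0.05, which 9.11% of all tested genes were. The fold changes were negative for 47 of the 48 and positive for RRN3 alone per the authors' deposited table, while 53.6% of all tested genes were negative. Negative values were not limited to these factors: all 9 B-cell precursor markers with a fold change were negative too, from -0.31 for DNTT to -0.06 for CD79A per the authors' deposited table. Of the 8 of them with an adjusted p 0 were called by the authors' DESeq2 test, and DNTT and RAG1 had an unadjusted p under 0.05. The median log2 fold change of the 48 was -0.25, or 15.6% lower, with the middle of the set between -0.36 and -0.17, beside -0.02 over all tested genes. In RNA from whole cultures, fewer cells of a kind and less RNA per cell cannot be told apart.

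**Figure D1:**
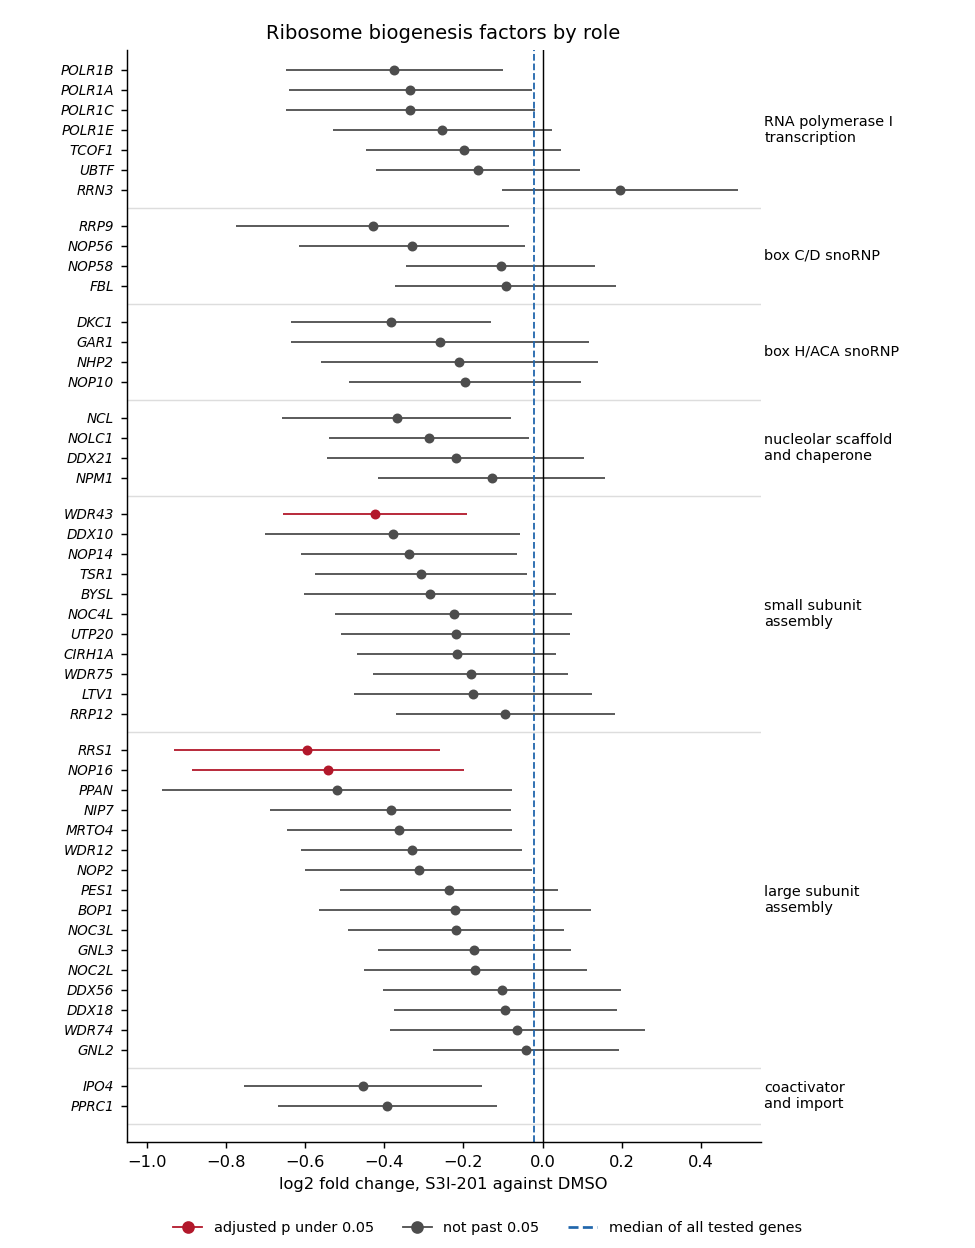
Log2 fold change of S3I-201 against DMSO (horizontal axis) of each of the 48 factors, grouped by role, with points for the authors' value and lines for a 95% interval from the implied SE. The 3 called genes are red, 47 of the 48 points lie left of 0, and the dashed line marks the median of all tested genes at -0.02.

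At an unadjusted p under 0.05, 21 of the 48 factors (43.8%) were lower per the authors' deposited table, where this held for 6.88% of all tested genes. At the factors' median implied SE of 0.15, a log2 change of 0.43 in size would have been needed to pass, and the authors' deposited table holds larger decreases for only 4 of them, RRS1, NOP16, PPAN and IPO4. RRP9 at -0.43 lay just under that size. WDR43 passed with a change of -0.42 and an implied SE of 0.12.

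Factors of the large subunit held the largest decreases. RRS1, a nucleolar protein that brings the 5S ribonucleoprotein into the early large subunit, stood at -0.59 on the log2 scale per the authors' deposited table (adjusted p = 0.0127, implied SE 0.17), with 319 as its mean normalized count. NOP16, a nucleolar protein of the same precursor, stood at -0.54 there (implied SE 0.18, adjusted p = 0.0373) with a mean of 724. The call of NOP16 was the least firm of the 3. Its adjusted p was 0.0526 when every gene with a p-value entered the adjustment. It was 0.0643 once the trend of fold change with abundance was removed, and neither value passes 0.05. NOP16 shares 344 exon bases (12.0% of its exons) with ARL10 and 227 (7.93%) with HIGD2A, each on the opposite strand. ARL10 had a mean of 0.30, and HIGD2A a mean of 562 and a log2 fold change of -0.09. RRS1 shares 194 exon bases (11.4%) with AC009879.2 on the same strand, which has no value under that name. Whether these overlaps affected the counts of NOP16 and RRS1 was not tested.

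The other 14 of the 16 large subunit factors did not pass, and all 16 were negative, with a median of -0.23 per the authors' deposited table. PPAN, a factor of early large subunit precursors, had -0.52 (implied SE 0.23, adjusted p = 0.192) there at a mean of only 58.0, the lowest mean of the 48. PPAN shares 1447 exon bases (56.0% of its exons) with the readthrough gene PPAN-P2RY11, so its count is uncertain. NIP7 at -0.38 (implied SE 0.16, adjusted p = 0.144) and MRTO4 at -0.36 (implied SE 0.14, adjusted p = 0.138) followed per the authors' deposited table. Both bind precursors of the large subunit.

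The 3 proteins of the PeBoW complex, which is needed for processing of large subunit RNA, did not pass. WDR12 had a log2 fold change of -0.33 (implied SE 0.14, adjusted p = 0.187), PES1 -0.24 and BOP1 -0.22 per the authors' deposited table, and the difference among them was smaller than their implied SEs of 0.14 to 0.17. NOP2, a methyltransferase of large subunit RNA, had -0.31 and NOC3L, a partner of NOC2L in transport of the precursor, -0.22 in that table. NOP2 shares 2550 exon bases (54.4%) with AC006064.6 on the same strand in GENCODE 29. AC006064.6 has no value in the deposited table under that name, and whether the overlap affected the count of NOP2 was not tested. NOC2L and the GTPase GNL3, also known as nucleostemin, both stood at -0.17 per the authors' deposited table. The values nearest 0 in this class were those of the helicases DDX56 at -0.10 and DDX18 at -0.09, of WDR74 at -0.06 and of the GTPase GNL2 at -0.04 per the authors' deposited table.

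WDR43 was the single called gene among the 11 factors of the small subunit. It belongs to the group of UTP proteins that binds the nascent precursor first and links its transcription to its processing, and its mean normalized count was 2031. The authors' deposited table gives it a log2 fold change of -0.42 (implied SE 0.12, adjusted p = 0.010), the smallest unadjusted p of the 48 at 3.72e-04. WDR43 lies on chromosome 2 from 28894643 to 28948222 on the plus strand (GRCh38, whole gene in GENCODE 29) and NOP16 on chromosome 5 from 176383938 to 176388975 on the minus strand.

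CIRH1A, now named UTP4, and WDR75 sit in the same UTP group as WDR43 and had -0.22 (adjusted p = 0.436) and -0.18 (adjusted p = 0.541) per the authors' deposited table. The 3 implied SEs were 0.12 to 0.13, and a difference among these genes was not tested. All 11 small subunit factors were negative, with a median of -0.22. The helicase DDX10 at -0.38 (adjusted p = 0.191), NOP14 at -0.34 (adjusted p = 0.156) and the GTPase-like TSR1 at -0.31 (adjusted p = 0.209) came next after WDR43 per the authors' deposited table. BYSL at -0.28, NOC4L and UTP20 at -0.22 each, LTV1 at -0.18 and RRP12 at -0.09 completed the class in that table. LTV1 and RRP12 act in late maturation and export, respectively.

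Of the 7 genes of RNA polymerase I transcription 6 had negative values and 1 a positive value, and none passed. The catalytic core subunits POLR1B at -0.37 (implied SE 0.14, adjusted p = 0.0989) and POLR1A at -0.33 (implied SE 0.16, adjusted p = 0.248) had the largest decreases per the authors' deposited table. POLR1C, shared with RNA polymerase III, had -0.33, and POLR1E -0.25 (adjusted p = 0.383) in that table. POLR1C shares 348 exon bases (6.27% of its exons) with XPO5 on the opposite strand, and libraries that do not mark the strand cannot tell such reads apart. XPO5 had a mean of 1821, against 354 for POLR1C, and fell by 0.50 on the log2 scale per the authors' deposited table (adjusted p = 0.00196); its part in the value of POLR1C was not tested.

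RRN3, which switches the polymerase to its initiating form, had the only positive value of the 48, 0.20 per the authors' deposited table (adjusted p = 0.611, implied SE 0.15). UBTF, which binds the ribosomal DNA promoter, stood at -0.16 and TCOF1, the treacle protein that works with it at ribosomal DNA, at -0.20 there. Of 15 other subunits and factors of the polymerase, listed from textbook knowledge, CD3EAP was the single one past the test. CD3EAP encodes the partner of POLR1E in the polymerase, and it fell by 0.82 on the log2 scale per the authors' deposited table (adjusted p = 0.00664, implied SE 0.22). Of the 4 listed TATA-binding-protein-associated factors of the polymerase, TAF1D had 0.35 (adjusted p = 0.206), TAF1C 0.14, TAF1A 0.11 and TAF1B -0.12 per the authors' deposited table, so none passed.

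Components of snoRNPs had negative values throughout, and none of the 8 passed. In the box H/ACA class DKC1, the pseudouridine synthase dyskerin, stood at -0.38 per the authors' deposited table (implied SE 0.13) with an adjusted p of 0.0508, just outside the threshold, at a mean of 2758. Its partners GAR1 at -0.26 (implied SE 0.19), NHP2 at -0.21 (implied SE 0.18) and NOP10 at -0.20 (implied SE 0.15) had adjusted p-values of 0.576 to 0.657 in that table. The 4 proteins form 1 particle, and the ranges of 1 implied SE around their fold changes overlapped.

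In the box C/D class the values of the core proteins spread more. NOP56 had -0.33 (implied SE 0.15, adjusted p = 0.204), while its partner NOP58 had -0.11 (adjusted p = 0.770) and the methyltransferase FBL, fibrillarin, -0.09 (adjusted p = 0.844) per the authors' deposited table. RRP9, which binds the U3 snoRNA, stood at -0.43 (implied SE 0.18, adjusted p = 0.151) there. Whether NOP56 differed from NOP58 was not tested.

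The most abundant members were nucleolar scaffolds and chaperones. NCL, nucleolin, had a mean normalized count of 27476 and a log2 fold change of -0.37 per the authors' deposited table (adjusted p = 0.138, implied SE 0.15). NPM1, nucleophosmin, had a mean of 16173 and -0.13 (implied SE 0.15, adjusted p = 0.764) there, and its many pseudogenes make its count uncertain. NOLC1, a snoRNP chaperone, had -0.29 (adjusted p = 0.213) and the helicase DDX21 -0.22 (adjusted p = 0.588) in that table. Per kilobase of exon in GENCODE 29, NPM1 came first of the 48 with a mean of 4225, followed by NCL with 3965, FBL with 1751 and NOLC1 with 1695. PPAN was last with 22.5 and POLR1C next to last with 63.8 per kilobase.

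A pair of genes act beside the assembly line. IPO4, an import receptor that carries ribosomal proteins and histones into the nucleus, had a log2 fold change of -0.45 per the authors' deposited table (adjusted p = 0.0530, implied SE 0.15). IPO4 shares 3470 exon bases (69.3%) with AL136295.4 on the same strand in GENCODE 29. AL136295.4 has no value in the deposited table under that name, and whether the overlap affected the count of IPO4 was not tested. PPRC1, a serum-responsive transcriptional coactivator, had -0.39 there (implied SE 0.14, adjusted p = 0.0805). At a looser threshold of 0.1, 7 factors were lower, namely the 3 called ones with DKC1, IPO4, PPRC1 and POLR1B. The share of all tested genes lower at that threshold was not counted.

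**Figure D2:**
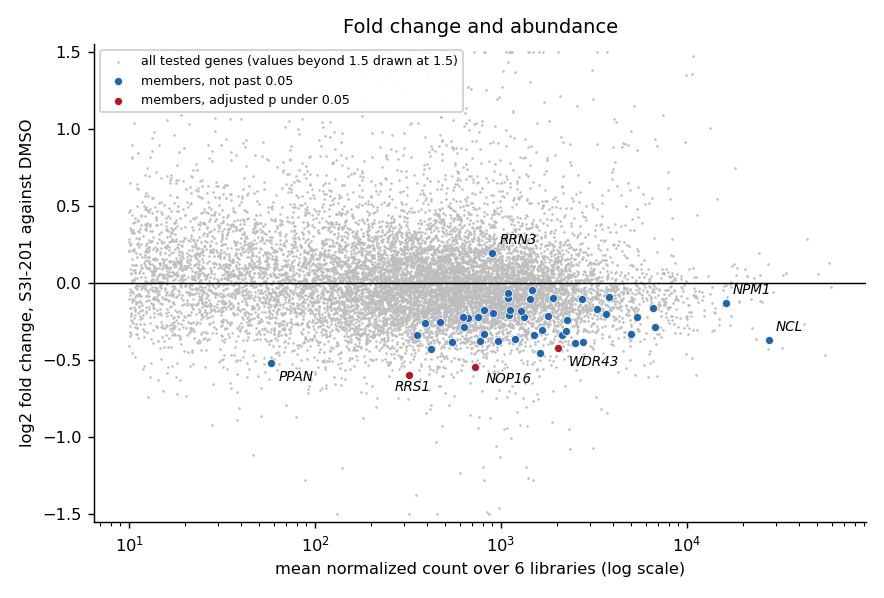
Log2 fold change (vertical axis) against the mean normalized count over the 6 libraries (horizontal log axis) for all 11912 tested genes in grey and the 48 factors in colour. The factors lie at means from 58.0 to 27476 and sit below 0 along the whole range, apart from RRN3.

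The factors are abundant transcripts, with a median mean of 1306 against 410 over all tested genes. Fold changes of abundant genes were slightly lower in general, at a median of -0.04 for tested genes with a mean of at least 300. With the median of 20 abundance bins removed, 47 of the 48 values were still negative. Called lower were then 2 factors, WDR43 and RRS1, and 1.18% of all tested genes. Counts of the intron-borne snoRNAs themselves were low. They do not measure how much of these snoRNAs the cells held, since TruSeq RNA v2 preparation is not made for such short RNAs. GENCODE 29 places 27 snoRNA genes inside 8 of the factors on the same strand, and the 22 of them found by name per the authors' deposited table had means of at most 8.83, 11 of them 0. The 8 hosts, which include NOP56, NCL, GNL3, WDR43 and DKC1, had a median of -0.35 and the 40 other factors -0.22. Exon bases shared with another gene were found for 21 of the 48, 17 of them on the opposite strand. The largest shares on the opposite strand were 27.4% for NHP2 with RMND5B, 20.7% for TSR1 with SRR and 20.2% for NIP7 with COG8. The part of such genes in the counts was not tested.

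Other genes of ribosome production were taken from textbook lists. Of 47 further small subunit factors 1 was lower and 0 higher by the authors' DESeq2 adjusted p, with 15 lower and 1 higher at an unadjusted p under 0.05 and a median of -0.17. The 1 was WDR3, a protein of the small subunit processome, at -0.51 per the authors' deposited table (adjusted p = 0.0247, implied SE 0.16). HEATR1 at -0.38 (adjusted p = 0.0728) and NOL11 at -0.38 (adjusted p = 0.108), both of the UTP group of WDR43, did not pass in that table. Of 42 tested further large subunit factors 1 was lower and 1 higher, with 4 lower and 2 higher at an unadjusted p under 0.05 and a median of -0.16. RRP1B, a nucleolar partner of protein phosphatase PP1, fell by 0.52 on the log2 scale per the authors' deposited table (adjusted p = 0.00166, implied SE 0.13). RSL24D1, which joins the large subunit precursor in the place of a ribosomal protein, was higher by 0.55 in that table (adjusted p = 0.00262, implied SE 0.14). EBNA1BP2 had -0.25 and no p-value per the authors' deposited table.

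Cytosolic ribosomal proteins, which this machinery assembles, had the median nearest 0 of these lists. Of 76 tested 0 were called by the authors' DESeq2 adjusted p, with 0 lower and 1 higher at an unadjusted p under 0.05, and that median was -0.03. That 1 was RPL13A at 0.26 per the authors' deposited table (adjusted p = 0.258). Of 14 genes of the RNA exosome, which trims the precursor, 0 were called, with EXOSC10 lower at an unadjusted p under 0.05, at -0.32 per the authors' deposited table (adjusted p = 0.171). Of 9 snoRNP assembly factors 0 were called by the authors' DESeq2 adjusted p and 0 had an unadjusted p under 0.05, with SHQ1, a chaperone of DKC1, at -0.27 (adjusted p = 0.423) per the authors' deposited table.

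**Figure D3:**
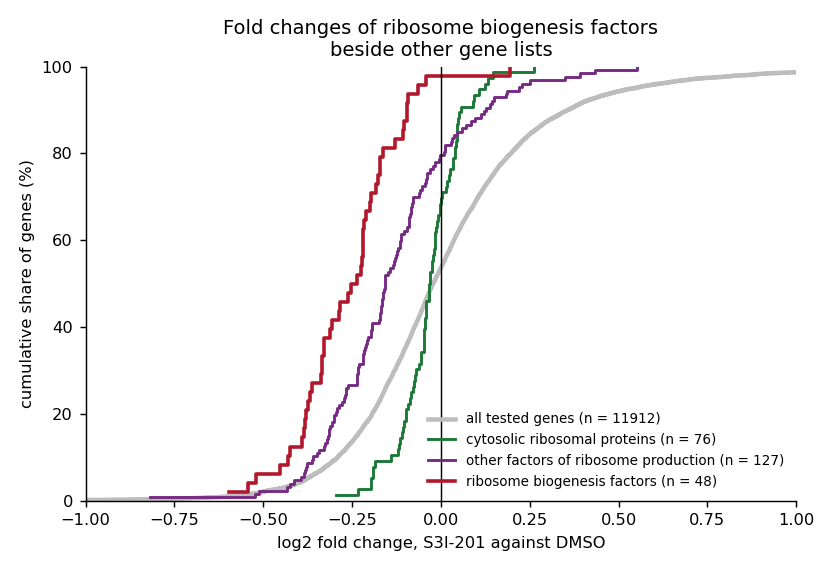
Cumulative share of genes (vertical axis, %) by log2 fold change of S3I-201 against DMSO (horizontal axis, drawn from -1 to 1) for the 48 factors, 127 tested other factors of ribosome production, 76 ribosomal proteins and all tested genes. The curves of the 48 factors and of the other factors lie left of that of all genes, with medians of -0.25 and -0.16, and ribosomal proteins rise steeply around -0.03.

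What the factors share beyond their function was sought in their promoters, windows of 300 bases from 250 before to 50 after the start in RefSeq (GRCh38.p14). A window was matched for 40 of the 48. BOP1, DDX18, NOLC1, NOP58, POLR1E, RRP12, RRS1 and TCOF1 had none. The letters CACGTG, the canonical E-box that MYC with MAX and related factors such as USF1 bind, read the same on both strands. They stood in the windows of 18 of the 40 factors (45.0%), of 12.7% of the 9556 tested genes with a window and of 8.77% of all genes in the table. Among tested genes with at least 15 CG pairs in the window the share was 13.4%, and the median number of CG pairs was 25.2 for the factors and 25.7 for tested genes. A match describes the letters and does not show a bound site.

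By role, E-boxes stood in 6 of 10 windows of small subunit factors, 6 of 13 of large subunit factors, 2 of 3 of box C/D and 2 of 4 of box H/ACA proteins. They stood in 1 of 3 windows of nucleolar scaffolds and chaperones, 1 of 2 of the pair of IPO4 and PPRC1 and 0 of 5 of RNA polymerase I genes. These numbers are small, and differences between roles were not tested. The further small and large subunit factors had them in 15 of 41 and 11 of 39 windows, and ribosomal proteins in 4 of 63. The GC box GGGCGG, searched on both strands, was in 70.0% of the factors' windows and 77.3% of those of tested genes. TCGCGA, another palindrome, was in 17.5% against 7.52%, and GCATGC in 5.00% against 11.9%.

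**Figure D4:**
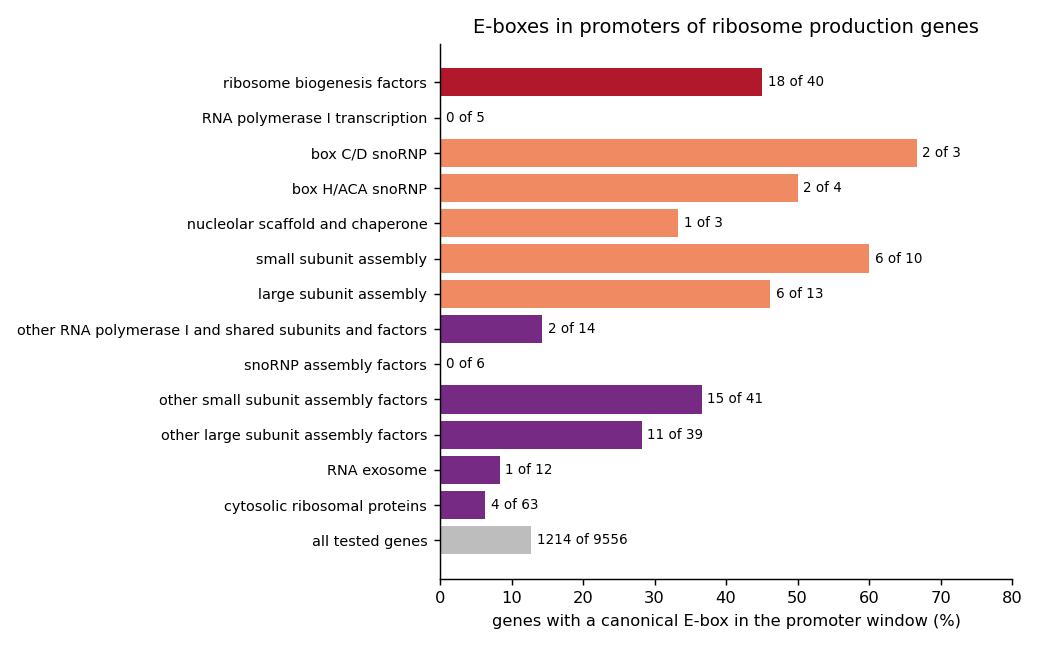
Share of genes with a canonical E-box in the promoter window (horizontal axis, %), with the number of genes beside each bar, for the 48 factors together and by role, for the other lists and for all tested genes. The factors stand at 45.0%, tested genes at 12.7% and ribosomal proteins at 6.35%, and several roles hold only 3 to 5 windows.

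The matches lay at the start of transcription. Of 19 E-boxes in the 18 windows 12 began within the first 36 bases after the start and 6 within the last 31 bases before it, and the exception was the second match of NOP10, 170 bases before. The following lines show the match in capitals with 10 bases on each side (9 on the right for NOP2), 5′ to 3′ on the strand of the gene, for the 6 E-box genes with an unadjusted p under 0.05 and, as the 2 with the smallest change, for FBL and GNL2.
WDR43, chr2:28894660-28894685, plus strand: cacggacgaaCACGTGgctgcagcgg
IPO4, chr14:24188830-24188855, minus strand: tcagaacctcCACGTGctgtccctcc
RRP9, chr3:51941894-51941919, minus strand: gttcagctgcCACGTGagttctgcgg
MRTO4, chr1:19251809-19251834, plus strand: tcttccgccgCACGTGgattcagcgc
NOP14, chr4:2963376-2963401, minus strand: cgcggcccggCACGTGtcttagggta
NOP2, chr12:6568242-6568266, minus strand: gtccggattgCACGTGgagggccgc
FBL, chr19:39846358-39846383, minus strand: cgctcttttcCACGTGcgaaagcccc
GNL2, chr1:37595919-37595944, minus strand: acgtcgtgcaCACGTGgtccggcgtg

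Both called genes with a window are shown from 120 bases before to 20 after the start, because 1 holds the E-box and the other does not. In WDR43 the E-box, in capitals, begins at base 4 of the annotated transcript, and NOP16 has no CACGTG in its 300 bases.
WDR43, chr2:28894547-28894686, plus strand: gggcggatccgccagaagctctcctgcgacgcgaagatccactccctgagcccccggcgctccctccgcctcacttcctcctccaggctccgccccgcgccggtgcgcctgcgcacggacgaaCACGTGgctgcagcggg
NOP16, chr5:176388579-176388718, minus strand: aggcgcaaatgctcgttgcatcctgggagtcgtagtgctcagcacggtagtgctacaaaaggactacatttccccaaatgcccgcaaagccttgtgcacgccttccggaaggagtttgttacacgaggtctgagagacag

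The fold changes were set side by side for factors with and without an E-box, and the difference was not tested. The median log2 fold change with an E-box was -0.23, from -0.45 for IPO4 to -0.04 for GNL2, and that of the 22 factors with a window and no E-box was -0.33, from -0.54 for NOP16 to 0.20 for RRN3. At an unadjusted p under 0.05, 6 of the 18 and 13 of the 22 were lower. Over all tested genes the medians were -0.06 with and -0.02 without an E-box. For MYC itself the authors' deposited table gives -0.57 and a mean normalized count of 4679, but no p-value. The value of MYC can therefore not be judged against the spread between libraries, and whether it rests on 1 library cannot be shown.

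**Figure D5:**
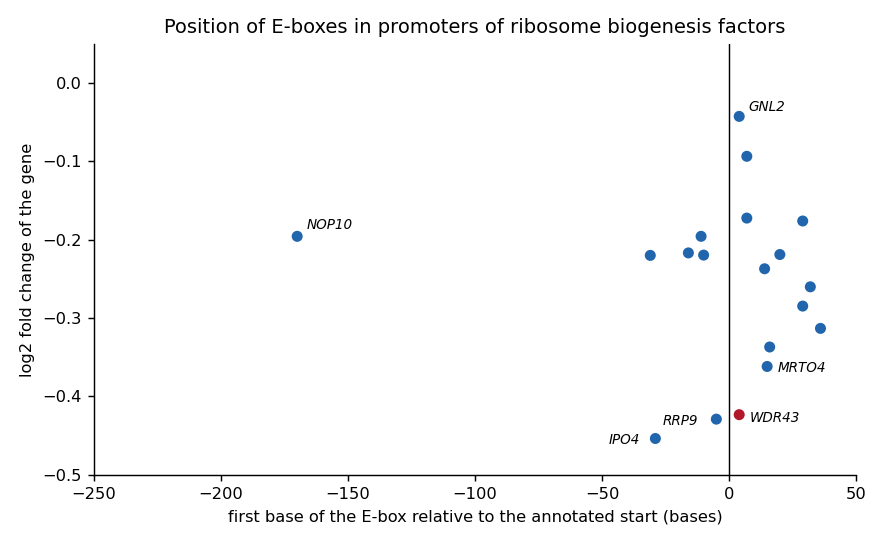
Position of the first base of each of the 19 E-boxes relative to the annotated start (horizontal axis, bases) and log2 fold change of its gene (vertical axis), with the called gene WDR43 in red. All matches but 1 of NOP10 lie between 31 bases before and 36 bases after the start, at fold changes from -0.45 to -0.04.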

How the data were processed

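Total RNA of REH cells was sequenced after TruSeq RNA v2 preparation, which does not mark the strand, per the labels' protocols. The hg38 build and bcl2fastq 2.19, Trimmomatic, Bowtie2, Picard, featureCounts and DESeq2 are named in the submitters' processing notes without role or order. Annotation, strand setting and model formula: not given in the sources used here. In all the deposited table holds 4 columns of values. The mean normalized count is a signal that the authors made by dividing counts by size factors and averaging over the libraries, per the file headers. Per the file headers, the authors also made the log2 fold change. Both kinds of p-value, unadjusted and adjusted, are the authors' own as well, per the file headers. An adjusted p exists for 11912 genes, whose means start at 10.0, and recomputing it by Benjamini-Hochberg gave values within 0.675% of the deposited ones. For 83 genes, MYC and EBNA1BP2 among them, a fold change was given without a p-value. Log2 fold changes were just 0.03 to 0.04 in size where 1 read had been counted, which is why the values are called shrunken.

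Since no value per library is held, the authors' adjusted p was used as deposited, at 0.05. Unadjusted p-values under 0.05 were counted as an alternative added after the data were seen. The 48 factors and the lists were chosen with earlier results of these data known, and no list was tested as a set. All 48 may be named; of other lists the genes past 0.05 and up to 3 with the smallest p were named, and others were chosen after their values were seen. Exon lengths, snoRNAs and shared exon bases came from GENCODE 29 and promoters from RefSeq tables (GRCh38.p14), in which CIRH1A is UTP4; 45 of the 49 windows of the factors matched GENCODE transcripts in the sense direction and 0 in the antisense one. Windows were found for 80.2% of tested genes. The trend with abundance was removed as the median of 20 bins. That step was tried on simulated data with a straight trend, independent errors and changes of random sign. The real data need not follow that setting. Python 3.11.15, scipy 1.17.1 and pandas 2.3.3 were used. Depths are estimates. Where the independent experiments share a day or culture is not stated, so p-values measure the spread between these libraries.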

Additional observations from a re-analysis of the deposited data

How the results depend on the processing

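Of the 48 factors, 3 were lower at an adjusted p of 0.05, 0 at 0.01, 7 at 0.1 and 21 at an unadjusted p under 0.05. Under any of these settings 0 were higher. Of all tested genes 1.45% were lower at an adjusted p of 0.05 and 6.88% at an unadjusted p under 0.05. Their shares at 0.01 and 0.1 were not counted. WDR43 and RRS1 passed when every gene with a p-value entered the adjustment and with the abundance trend removed, whereas NOP16 did not (adjusted p = 0.0526 and 0.0643), and a minimum change of 0.5 on the log2 scale left RRS1 and NOP16. The median log2 fold change of the factors stayed between -0.25 and -0.21 with the trend removed or at a mean of at least 500. The same held without NPM1, PPAN, NOP56 and FBL, and without the members that share exon bases. It also held without 7 snoRNA hosts listed beforehand, a list that did not include TSR1. Among the other lists, small subunit factors had 1 lower, 0 at 0.01, 2 at 0.1 and 15 lower and 1 higher at an unadjusted p under 0.05. Large subunit factors had 1 lower and 1 higher, 2 higher at 0.1, and 4 lower and 2 higher unadjusted. Unadjusted counts were 2 lower and 1 higher for the other RNA polymerase I genes, 1 lower for the exosome and 1 higher for ribosomal proteins. No paired analysis was possible because the deposited table has no value per library, so no replicate could be left out either. Implied SEs near 0.15 limit what could pass to log2 changes of about 0.43.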

Other observations

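Factors of late, mostly cytoplasmic steps were looked at together after their values had been seen, so they carry no test. Of 14 such genes 1 was called, RSL24D1, which was higher, where 4.45% of all tested genes were called higher. Their median log2 fold change was 0.04, a value that depends on this choice and is not a comparison with the 48 factors. Of the 48 factors, LTV1 is also among the 14. The 14 are a choice and not complete. TSR1, which also acts in late small subunit steps, was left out and had -0.31. RRP12, which acts in export, was left out too and had -0.09. RIOK3, a kinase of small subunit maturation, had 0.43 (adjusted p = 0.129) and ZNF622, which acts on the large subunit in the cytoplasm, 0.39 (adjusted p = 0.0856) per the authors' deposited table. SBDS, needed to release the anti-association factor EIF6, stood at 0.25 (adjusted p = 0.429) and EIF6 at -0.09 there. The endonuclease NOB1 had 0.14 (adjusted p = 0.730) per the authors' deposited table, while its partner PNO1 had -0.39 (adjusted p = 0.116). The export adaptor NMD3, at -0.00, and the GTPase EFTUD1, at 0.01, were close to 0 in that table. A difference between these 14 genes and the 48 factors was not tested.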
